A study of Mus musculus with 2 samples.

Results

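The genes of the natriuretic peptide system were followed in the hearts of mice that lack Mediator subunit 1 (Med1) in cardiomyocytes. They are the 8 genes Nppa, Nppb, Nppc, Npr1, Npr2, Npr3, Corin and Furin, chosen by gene symbol for their role in this system, out of 22882 gene symbols measured. All 8 were found, each on 1 row of both files. The control hearts were of Med1fl/fl genotype, in which the Med1 gene carries loxP sites. The csMed1-/- hearts carried the same floxed Med1 together with Cre recombinase driven by the α-myosin heavy chain (α-MyHC) promoter, which is active in cardiomyocytes from late gestation. All mice were of the C57BL6/J background, untreated, of both sexes and 23 days old. Each genotype is represented by 1 library, made from the pooled heart RNA of 5 mice, so there are no replicates, and no difference below could be tested against the variation between mice or pools. The label of the control names no Cre, so that an effect of Cre itself and an effect of Med1 deletion cannot be told apart here. The values are FPKM, which are fragments scaled to transcript length and to library size. The targeted gene, Med1, was at 3.38 FPKM in control against 0.412 FPKM in csMed1-/- heart (ratio 0.122), in the direction that the labels give.

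Natriuretic peptides are hormones of the heart that promote sodium excretion and relax blood vessels. Nppa encodes atrial natriuretic peptide (ANP) and Nppb brain natriuretic peptide (BNP), and both are made by cardiomyocytes, in the atria of the healthy adult heart and also in the ventricles before birth and under load. Nppc encodes C-type natriuretic peptide (CNP), a product mainly of endothelium and other tissues. Npr1 encodes the guanylyl cyclase receptor that binds ANP and BNP and makes cGMP, Npr2 the guanylyl cyclase receptor that binds CNP, and Npr3 a receptor without a cyclase that takes up and clears all of these peptides. Corin encodes a membrane protease of cardiomyocytes that cleaves the ANP precursor, and Furin a convertase of the secretory pathway that can cleave the BNP precursor.

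Upstream sequences of the 3 members whose values differed most between the genotypes are shown because 2 of them, Nppa and Nppb, are neighbours on the chromosome and were both higher in csMed1-/- heart, while Corin was lower. The sequences are RefSeq promoter windows of GRCm38.p6 (the same assembly as mm10), printed 5′ to 3′ on the strand of the gene. Only bases outside every annotated exon and outside the annotated span of the gene itself are printed. Introns of other transcripts were not excluded. The Nppb stretch lies at chr4:147985650-147985785 on the plus strand (136 bases), the Nppa stretch at chr4:148000472-148000721 on the plus strand (250 bases) and the Corin stretch at chr5:72504541-72504790 on the minus strand (250 bases). Capitals mark every match, on either strand, to the motifs described below.
Nppb: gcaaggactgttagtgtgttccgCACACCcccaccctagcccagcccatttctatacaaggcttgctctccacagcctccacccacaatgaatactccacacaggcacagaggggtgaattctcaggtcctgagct
Nppa: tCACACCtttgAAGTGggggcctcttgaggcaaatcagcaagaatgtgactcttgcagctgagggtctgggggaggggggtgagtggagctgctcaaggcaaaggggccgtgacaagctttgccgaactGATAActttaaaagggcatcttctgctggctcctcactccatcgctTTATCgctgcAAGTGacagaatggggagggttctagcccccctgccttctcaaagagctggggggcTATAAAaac
Corin: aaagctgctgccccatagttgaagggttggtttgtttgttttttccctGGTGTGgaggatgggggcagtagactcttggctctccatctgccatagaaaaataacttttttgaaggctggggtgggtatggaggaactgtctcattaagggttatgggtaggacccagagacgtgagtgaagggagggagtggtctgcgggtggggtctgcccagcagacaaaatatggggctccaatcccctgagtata

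Windows of the 250 bases before the start given with the promoter set were found for all 8 members by symbol, with 2 windows for Furin. They were searched on both strands for the letters GATAA (the core bound by GATA factors), AAGTG (the NKX2-5 core), GGTGTG (the T-box core), GGAATG (the M-CAT element), AGGTCA (the half-site of nuclear receptors), GGGCGG (the GC box) and TATAAA, and for the CArG box and the MEF2 box by their known consensus. GATAA was found in the windows of Nppa and Nppb and of no other member, against 22.6% of all 32851 promoter windows. In Nppa the matches began at bases -121 and -75 from the annotated start, and in Nppb at -94 and -83, within the part of the window that the annotations mark as transcribed and that is not printed. AAGTG was found in Nppa and Furin (40.7% of all windows), beginning at -239 and -65 in Nppa. GGTGTG was found in Nppa, Nppb and Corin (16.3% of all windows), and GGAATG in Nppb alone (12.6%). TATAAA was found in Nppa, Nppb, Nppc and Furin (12.4%), and GGGCGG in Nppc, Npr1 and Furin (32.7%). AGGTCA (14.0%), the CArG box (1.47%) and the MEF2 box (2.92%) were found in no member, which says only that these letters are not in this window. No matches in the printed stretches overlapped. The matches are a description of the sequence, since no binding was measured here.

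Both ligands of the heart were much higher in csMed1-/- heart. Nppa, the ANP gene on chromosome 4 (148000722 to 148002079, plus strand, 3 exons), had 468 FPKM in control against 11114 FPKM in the csMed1-/- library, a 23.7-fold higher value (log2 ratio 4.57). It was thereby the gene with rank 284 of 22882 in control and rank 3 in csMed1-/- heart, and its part of the summed FPKM was 0.0600% and 1.55%. No gene gained more FPKM than Nppa did, at 10645. In bulk heart RNA, more cells that express a gene and more RNA per cell cannot be told apart, and this holds for each value here.

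Nppb, the BNP gene (chromosome 4, 147985788 to 147987205, plus strand, 3 exons), had 167 FPKM in control against 1480 FPKM in csMed1-/- heart. This is 8.83-fold higher (log2 ratio 3.14), and its rank went from 621 to 81. Nppa exceeded Nppb in both libraries, by 2.80 times in control and by 7.51 times in csMed1-/- heart. Together, ANP and BNP transcripts had 636 FPKM in control against 12593 FPKM in csMed1-/- heart, which is 19.8-fold higher.

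The third ligand was close to the limit of detection in both hearts. Nppc, the CNP gene (chromosome 1, 86666291 to 86670571, on the minus strand), was measured at 0.0458 FPKM in control against 0.0165 FPKM in csMed1-/- heart. Where a single read in one library meets a single read in the other, their FPKM should stand in a fixed ratio. This ratio was sought only below 1, among 2461 rows of no more than 0.15 FPKM in either genotype. The most frequent value was 0.721, with 63 rows within 0.5% of it. Windows of the same relative width 5% below and above held 5 and 8 rows. If 0.721 is the step of single reads, 1 csMed1-/- read against 2 control reads, or small multiples of these, gives 0.360. The ratio of Nppc, 0.362, lies beside it. On that reading the csMed1-/- library had 1.39 times the depth of control. A step above 1 was not sought, so which library was deeper was not tested, and the totals of reads are unknown. No direction is read from so low a value.

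**Figure D1:**
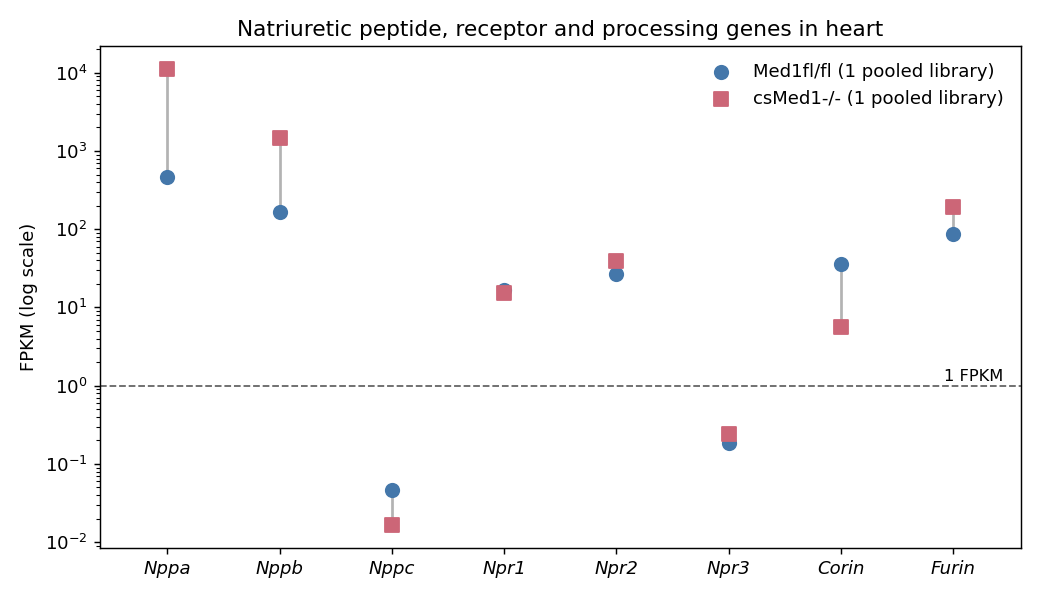
FPKM (log axis) of the 8 natriuretic genes in the 1 pooled control library (circles) and the 1 pooled csMed1-/- library (squares), with a grey line joining the values of a gene and a dashed line at 1 FPKM. Nppa and Nppb stand far higher and Corin lower in csMed1-/- heart, the points of Npr1 nearly coincide at 16.9 and 15.1 FPKM, and Nppc and Npr3 lie below 1 FPKM in both libraries.

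The receptors differed far less than the ligands. Npr1, which encodes the receptor of ANP and BNP (chromosome 3, 90450591 to 90465866, minus strand), was at 16.9 FPKM in control against 15.1 FPKM in csMed1-/- heart (ratio 0.895). Npr2, which encodes the receptor of CNP (chromosome 4, 43631935 to 43651244, plus strand), had 26.5 and 39.1 FPKM (ratio 1.47). Both lay within 2-fold, and Npr2 exceeded Npr1 by 1.57 times in control and by 2.58 times in csMed1-/- heart. Npr3, the gene of the clearance receptor (chromosome 15, 11839896 to 11907287, minus strand), was low, with 0.186 and 0.238 FPKM. Npr1 was 90.9 times as high as Npr3 in control and 63.5 times as high in csMed1-/- heart. The 3 receptor genes together summed to 43.6 and 54.4 FPKM, a ratio of 1.25. Set against its receptor, the sum of Nppa and Nppb was 37.6 times the level of Npr1 in control and 833 times in csMed1-/- heart.

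The processing enzymes differed in opposite directions. Corin, the gene of the ANP-cleaving protease (chromosome 5, 72300025 to 72504473, minus strand), was at 36.4 FPKM in control against 5.71 FPKM in csMed1-/- heart, 6.38-fold lower (log2 ratio -2.67), and its rank went from 2208 to 5994. Furin (chromosome 7, 80388585 to 80405436, minus strand) had 87.9 and 190 FPKM, 2.16-fold higher (log2 ratio 1.11). The FPKM of Nppa was therefore 12.9 times that of Corin in control and 1947 times in csMed1-/- heart, whereas Nppb was 1.90 and 7.80 times the level of Furin. Corin had 0.414 of the level of Furin in control and 0.0301 of it in csMed1-/- heart. These are levels of transcripts, and neither protease activity nor peptide was measured in these files.

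To set these values beside all other genes, a change was counted when it was past 2-fold in genes that had a value above 0 in each library and reached 1 FPKM in control, in csMed1-/- heart or in both, which holds for 10489 genes. Of these, 31.5% were past 2-fold, 13.6% higher and 18.0% lower in csMed1-/- heart, and log2 ratios centred on a median of -0.07 (quartiles -0.72 and 0.55). Of the 8 members 6 passed the minimum, and all 6 were above 1 FPKM in both libraries, so that none passed through its high library alone. Among them Nppa, Nppb and Furin were higher past 2-fold, Corin was lower past 2-fold, and Npr1 and Npr2 lay within 2-fold. Nppc and Npr3 did not pass. A higher ratio than that of Nppa was found for 38 of the 10489 genes and a higher one than that of Nppb for 152, whereas 277 genes had a lower ratio than Corin. For Furin, 1236 genes had a higher ratio. Among the 1223 genes at 100 FPKM or more in either library, 4 had a higher ratio than Nppa, namely Serpina3n, Slc16a3, Wisp2 and Cnn1, named after their values were seen, and the highest of these 4 in csMed1-/- heart, Cnn1, had 622 FPKM there.

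**Figure D2:**
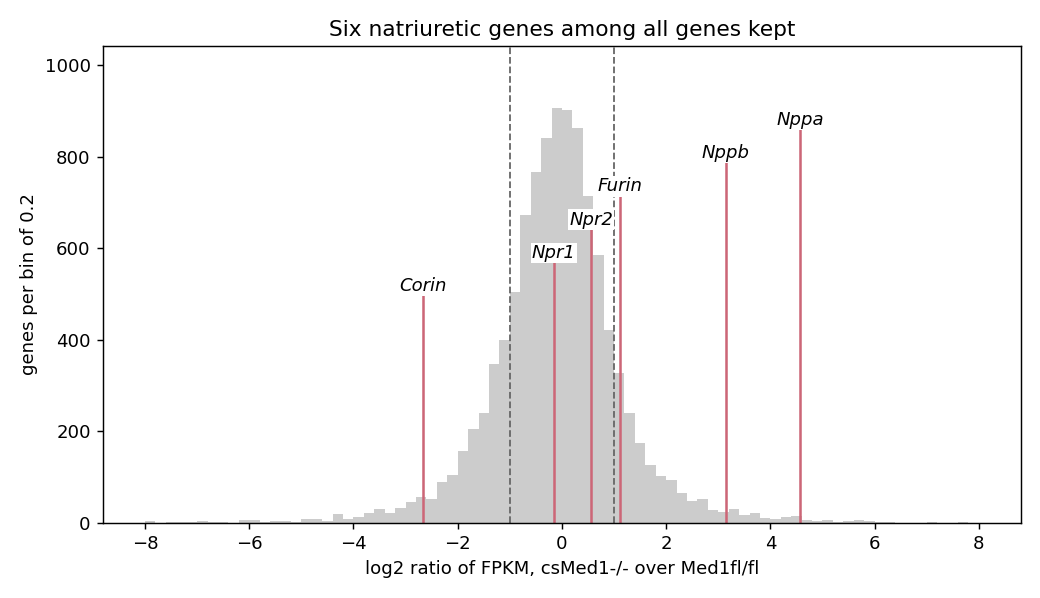
Histogram of the log2 ratio of csMed1-/- to control FPKM over the 10489 genes kept (bins of 0.2), with red lines at the 6 natriuretic genes kept and dashed lines at 2-fold. The heights of the red lines carry no value. Nppa at 4.57 and Nppb at 3.14 lie in the upper tail, Corin at -2.67 in the lower tail, Furin at 1.11 just past 2-fold, and Npr1 and Npr2 inside.

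The genes with the log2 ratio nearest to a member were sought among genes at 10 FPKM or more in either library. Nearest to Nppa were Hspa1a (2.04 to 48.4 FPKM), which encodes an inducible heat shock protein, Sphk1 (1.93 to 46.7 FPKM), which encodes sphingosine kinase, and Angptl7 (0.782 to 17.8 FPKM). Nearest to Nppb were Csrp1 (43.2 to 379 FPKM), Morn4 (2.06 to 18.3 FPKM) and Cldn5 (56.6 to 490 FPKM), which encodes an endothelial tight junction protein. Nearest to Corin were Fgf1 (37.7 to 5.89 FPKM), Slc38a3 (90.1 to 14.1 FPKM) and Kcnj11 (103 to 16.4 FPKM), which encodes a pore subunit of the ATP-sensitive potassium channel. All 9 differed from their member by at most 0.0581 in log2 ratio. The likeness rests on 1 ratio between 2 libraries, and all 3 genes nearest to Nppa had control values over 100 times lower than its own.

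Nppb and Nppa lie next to each other on chromosome 4, in the same orientation and 13516 bases apart, so the genes around them were examined next. In the RefSeq gene order, the 5 genes before Nppb are Miip, Fv1, Mfn2, Plod1 and 2510039O18Rik. Plod1, which encodes a collagen lysyl hydroxylase, had 107 and 190 FPKM (log2 ratio 0.83), and 2510039O18Rik, the immediate neighbour, 66.2 and 114 FPKM (0.79). Miip had 9.71 and 16.9 FPKM (0.80). Mfn2, which encodes a mitochondrial fusion protein, was lower, with 479 FPKM in control against 208 FPKM in csMed1-/- heart (log2 ratio -1.20), and Fv1 had 2.89 and 0.417 FPKM (-2.79). On the other side, Clcn6, a chloride transporter gene next to Nppa, had 4.37 and 7.02 FPKM (0.68). None of these 6 neighbours was higher past 2-fold. Mfn2 and Fv1 were lower, but Fv1 passed the minimum only through control.

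The other members stood in mixed surroundings. Around Furin, Hddc3 (log2 ratio -1.37) and Man2a2 (-1.13) were lower past 2-fold and Fes, its neighbour, had 6.78 and 7.93 FPKM. Around Npr2, Creb3 was higher (26.8 to 121 FPKM, log2 ratio 2.18). Only 1 of the 10 genes around Corin, Commd8, passed the minimum (0.907 and 1.24 FPKM). Dennd4b near Npr1 (log2 ratio -1.30) and Ptma near Nppc (-1.08) were lower past 2-fold, Ptma not after division by the library sum (-0.96). GENCODE M21 annotates genes on the opposite strand that overlap Nppa, Npr1, Npr2, Npr3, Corin and Furin, and none of them has a row in the files. The libraries were directional, but whether the counting used strand is not stated, so reads of such transcripts cannot be told apart from those of the members. On the same strand, the lincRNA AU023070 and the snRNA genes Gm25768 and Gm23712 overlap Corin, also without a row. Strand could not separate their reads from those of Corin.

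**Figure D3:**
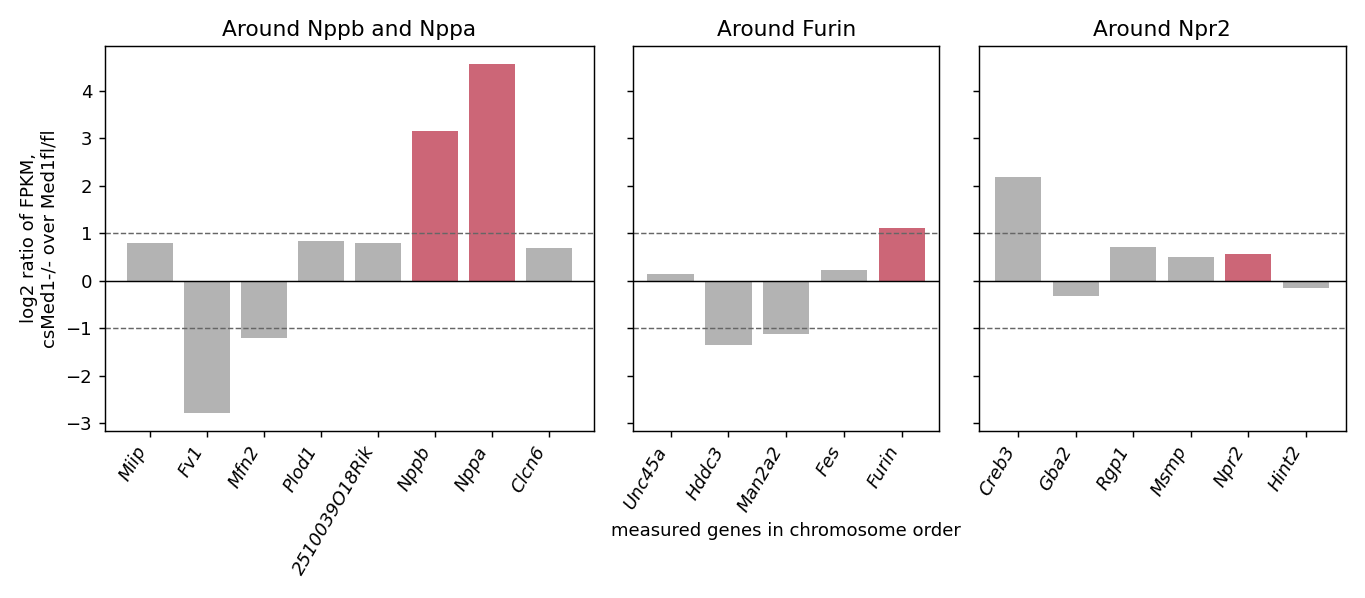
Log2 ratio of csMed1-/- to control FPKM for genes that passed the minimum, in chromosome order from 5 gene places before to 2 after Nppb (with Nppa) and up to 5 places on each side of Furin and Npr2, members in red and dashed lines at 2-fold. Nppb and Nppa stand at 3.14 and 4.57 between neighbours at 0.79 and 0.68, and in the surroundings of Npr2 it is Creb3, not Npr2, that lies past 2-fold.

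Genes that act with the 8 members were examined as lists. The counts of each list, here and below, stand beside 13.6% of all kept genes higher and 18.0% lower past 2-fold. Of 8 relatives of Furin among the convertases, 5 passed the minimum, 1 was higher and none lower past 2-fold, with a median log2 ratio of 0.10. Pcsk6, which encodes the convertase that activates corin and was the highest of them, had 57.5 FPKM in control against 34.7 FPKM in csMed1-/- heart (log2 ratio -0.73), within 2-fold. Its level was 1.58 times that of Corin in control and 6.09 times in csMed1-/- heart. Pcsk5 was higher, from 0.573 to 2.75 FPKM (2.27), and passed the minimum only through csMed1-/- heart, so that with 1 FPKM asked of both libraries none of 4 convertase genes was past 2-fold. Of 6 peptidase genes whose products degrade peptides, Ide alone passed the minimum. Ide encodes insulin-degrading enzyme, which also degrades ANP, and had 13.9 and 6.76 FPKM (log2 ratio -1.04). This was within 2-fold when ratios were centred on the median of all genes (-0.97), when values were divided by the library sum (-0.92) and with 1 FPKM added to both values (-0.94). Mme, the gene of neprilysin, which degrades natriuretic peptides in many tissues, was at 0.230 and 0.00530 FPKM, below the minimum (named after its values were seen).

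Downstream of the receptors, 7 of 12 genes that respond to or break down cGMP passed the minimum. Of these, 4 were lower and none higher past 2-fold, beside 18.0% of all genes lower. The median log2 ratio was -1.15 against -0.07 over all genes. Rgs2, a regulator of G protein signalling that is a substrate of cGMP-dependent kinase, had 8.88 and 1.27 FPKM (log2 ratio -2.80). Mrvi1, which encodes a kinase substrate that restrains calcium release, had 2.08 and 0.838 FPKM (-1.31). Rgs4 had 7.61 and 3.38 FPKM (-1.17), and Pde3a, a phosphodiesterase gene, 3.95 and 1.78 FPKM (-1.15). With 1 FPKM added to both values, Rgs2 alone was lower past 2-fold and the median was -0.74, and with 1 FPKM asked of both libraries, which Mrvi1 did not reach, 3 of 6 genes were lower. Pde2a, the highest of the list, lay within 2-fold at 54.6 and 35.0 FPKM (-0.64). Prkg1, the gene of cGMP-dependent kinase I, was at 0.0912 and 0.379 FPKM, below the minimum. Of 8 other guanylyl cyclase genes, 2 passed, both within 2-fold, and the higher, Gucy1b3, had 1.52 and 0.982 FPKM.

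Peptide storage and the other peptide hormones were examined next. Of 8 genes of secretory granules, 2 passed the minimum and both lay within 2-fold. Pam, which encodes the main membrane protein of atrial granules, had 117 and 144 FPKM (log2 ratio 0.29), and Cpe, the gene of carboxypeptidase E, 74.6 and 59.9 FPKM (-0.32). Of 7 endothelin genes 5 passed, with 1 higher and 1 lower past 2-fold and a median of 0.52. Edn1, the gene of endothelin 1, a peptide that stimulates natriuretic peptide secretion, had 1.16 and 2.61 FPKM (1.17). With 1 FPKM added to both values Edn1 was within 2-fold (0.74) and the median of the list was 0.33. Ednra, the gene of its receptor on myocytes, had 21.9 and 6.59 FPKM (-1.74), and Ece1, the highest gene of the list, 47.1 and 50.4 FPKM. Of 12 genes of other peptide hormones 4 passed. Gdf15, a stress-induced hormone gene, was higher (1.67 and 42.6 FPKM, log2 ratio 4.67), and so was Adm, the gene of the vasodilator adrenomedullin (4.25 and 21.2 FPKM, 2.32). Penk, the gene of the enkephalin precursor, was lower (3.91 and 0.315 FPKM, -3.63) and passed the minimum only through control.

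Genes of transcription factors and cofactors (among them the histone deacetylases Hdac4 and Hdac5) known to act on Nppa and Nppb mostly lay within 2-fold. Of 20 such genes 18 passed the minimum, 14 of them were within 2-fold, 1 was higher and 3 were lower, and the median log2 ratio was -0.05. Nkx2-5, the highest of the list, had 146 and 188 FPKM (0.37), Gata4 87.2 and 91.6 FPKM (0.07) and Srf 58.0 and 74.3 FPKM (0.36). Tbx20 was higher, at 2.40 and 6.96 FPKM (1.54). The 3 lower genes were Tbx3, a T-box repressor of Nppa (2.18 and 0.858 FPKM, -1.35), Nfatc3 (2.52 and 1.05 FPKM, -1.26) and Myocd, the gene of the SRF coactivator myocardin (9.24 and 4.53 FPKM, -1.03). With 1 FPKM added to both values all 3 were within 2-fold, and Myocd was so also with centred ratios (-0.96) and after division by the library sum (-0.90). Tbx3 passed the minimum only through control, and with 1 FPKM asked of both libraries 2 of 17 genes were lower. Rest, the gene of a repressor of both peptide genes, was below the minimum at 0.241 and 0.286 FPKM. Past 2-fold were thus 4 of 18 genes, beside 31.5% of all genes.

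**Figure D4:**
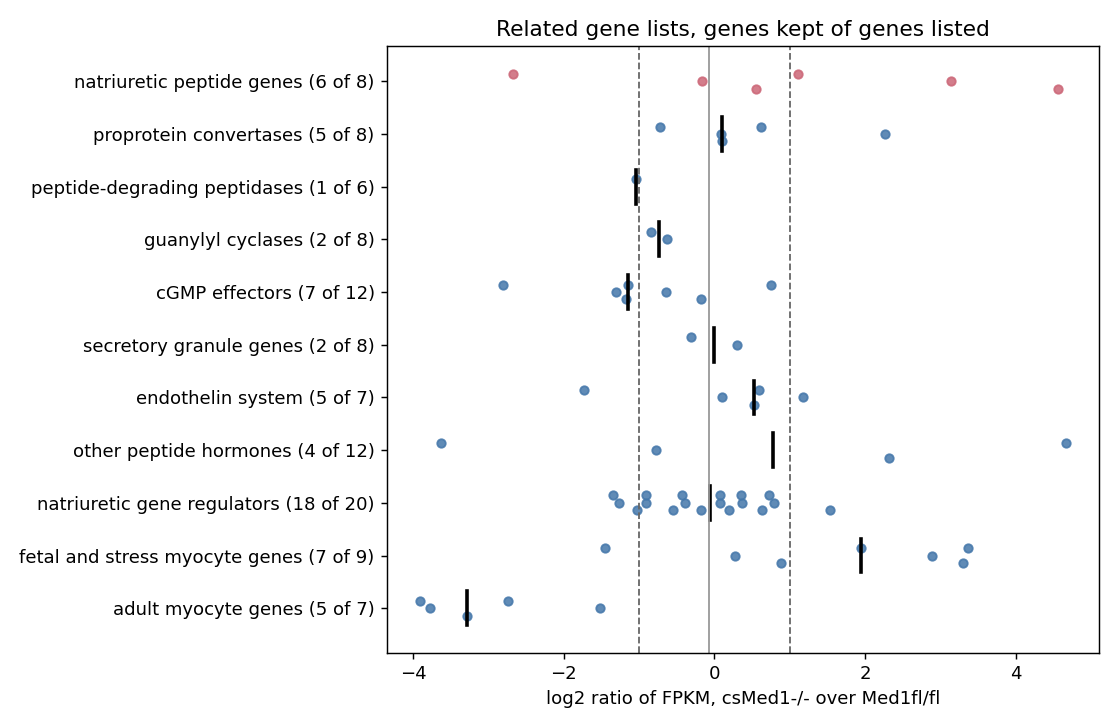
Log2 ratio of csMed1-/- to control FPKM for each gene that passed the minimum, by list, with the natriuretic genes in red, black bars at list medians, dashed lines at 2-fold and a grey line at the median of all genes (-0.07). The label of each list gives genes passing of genes listed; the regulators centre on -0.05, the cGMP genes on -1.15 and the adult myocyte genes on -3.28.

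Nppa and Nppb are commonly read together with other genes that cardiomyocytes use before birth or under stress. Of 9 genes of both kinds listed, 7 passed the minimum, 4 were higher and 1 lower past 2-fold. The median log2 ratio was 1.95, the value of Xirp2. Acta1, the skeletal actin gene, had 207 and 2033 FPKM (3.30), Tnni1, the slow skeletal troponin I gene, 0.947 and 9.72 FPKM (3.36), Myl4 7.44 and 55.2 FPKM (2.89) and Xirp2 2.56 and 9.91 FPKM (1.95). Tnni1 passed the minimum only through csMed1-/- heart, and with 1 FPKM asked of both libraries 3 of 6 genes were higher, with a median of 1.42. Csrp3 was lower, at 1773 and 646 FPKM (-1.46), and Ankrd1, another gene induced by load, had 103 and 125 FPKM (0.28). All 5 genes of the adult cardiomyocyte that passed were lower past 2-fold, among them Tnni3 (10283 and 1537 FPKM, -2.74) and Ckm (5262 and 1837 FPKM, -1.52). Nppa, at 11114 FPKM, thus exceeded Tnni3 in csMed1-/- heart, whereas in control Tnni3 was the higher. The other 3 adult genes, Atp2a2, Pln and Ryr2, had been reported as lower by the authors from these same libraries. Acta1, Tnni1 and Myl4 had been reported as higher. The counts of both lists are therefore no independent support. The authors had likewise reported Nppa and Nppb as higher from these libraries, so their ratios are no independent support either. Among other genes named above, the authors had also reported Gdf15, Adm, Wisp2, Hspa1a and Sphk1 as higher. Rgs2, Fgf1 and Kcnj11 had been reported as lower. Actc1, Mb and the joint entry of Myh6 and Myh7 are listed at 0 in control and at 9189, 1040 and 647 FPKM in csMed1-/- heart. Since cardiomyocytes use these genes at high levels, a 0 in these files can be a failed estimate, and no ratio is given for them. No member was listed at 0.

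Because Nppa is an atrial gene, atrial and ventricular markers were compared between the libraries. The 8 atrial markers summed to 32.3 FPKM in control against 76.2 FPKM in csMed1-/- heart. Most of the csMed1-/- sum was Myl4 (also in the list above), which had 7.44 and 55.2 FPKM. Most of the control sum was Kcna5, which was lower within 2-fold, at 17.8 and 10.7 FPKM (log2 ratio -0.73). The higher sum is thus that of 1 gene and not of the list. The defining atrial genes Myl7 (1.42 and 1.10 FPKM), Sln (0.356 and 0.174 FPKM) and Bmp10 (0 in both) were at or near 0 in both libraries, although the tissue is labelled only as heart. Dkk3, the other atrial marker past 2-fold, had 0.965 and 3.16 FPKM (log2 ratio 1.71) and passed the minimum only through csMed1-/- heart. Of 5 ventricular markers, 4 were lower past 2-fold (3 with 1 FPKM added to both values), and Myl2, the ventricular light chain gene, had 20467 and 6571 FPKM (log2 ratio -1.64). Hey2 passed the minimum only through control, and with 1 FPKM asked of both libraries 3 of 4 ventricular markers were lower. Whether atrial tissue contributed to the values of Nppa was not tested.

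Markers of other cell types were summed in the same way, and within each list the genes differed. Of 7 fibroblast markers 4 were higher past 2-fold, among them Col1a1 (129 and 502 FPKM) and Postn (1.57 and 27.4 FPKM), while Pdgfra (4.09 and 4.03 FPKM) and Dcn (114 and 96.6 FPKM) lay within 2-fold. The last, Lum, was lower (8.04 and 3.72 FPKM, log2 ratio -1.11), though within 2-fold after division by the library sum (-0.99) and with 1 FPKM added (-0.94). The fibroblast sum was 364 FPKM in control against 973 FPKM in csMed1-/- heart. Of 6 endothelial markers 4 lay within 2-fold and 2 were lower, with sums of 419 and 281 FPKM. Of 5 cardiomyocyte markers measured 3 were lower and none higher, with sums of 34324 and 11125 FPKM. Most of both sums came from Myl2 and Tnni3, which are also in the ventricular and adult lists. Actn2 (1286 and 1892 FPKM, log2 ratio 0.56) and Ttn (8.22 and 5.75 FPKM, -0.52) lay within 2-fold on opposite sides. When ratios were centred or divided by the library sum 2 were lower, Tnnt2 (-1.03) then being within 2-fold (-0.96 and -0.90). Endocardial markers, of cells that use Npr3, summed to 51.4 and 75.9 FPKM, with 1 of 3 kept genes higher, 1 lower and 1 within 2-fold. The part of these differences in the values of the members was not tested.

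The ratios of the members were recomputed under other settings. Each member has 1 row, so row choice could not move it. Each scaling adds the same constant to every log2 ratio, of at most 0.12 in size, so narrow ranges follow from the settings. Over 7 alternatives of scaling, pseudocount and row choice, the log2 ratio of Nppa ran from 4.53 to 4.69, that of Nppb from 3.10 to 3.27, that of Corin from -2.71 to -2.48 and that of Furin from 1.07 to 1.23. Npr1 ran from -0.20 to -0.04 and Npr2 from 0.52 to 0.68, both within 2-fold throughout. Npr3 (0.06 to 0.48) and Nppc (-1.51 to -0.04) moved most with the pseudocount, with 1 FPKM added giving 0.06 and -0.04, while the other ends came from scaling.

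**Figure D5:**
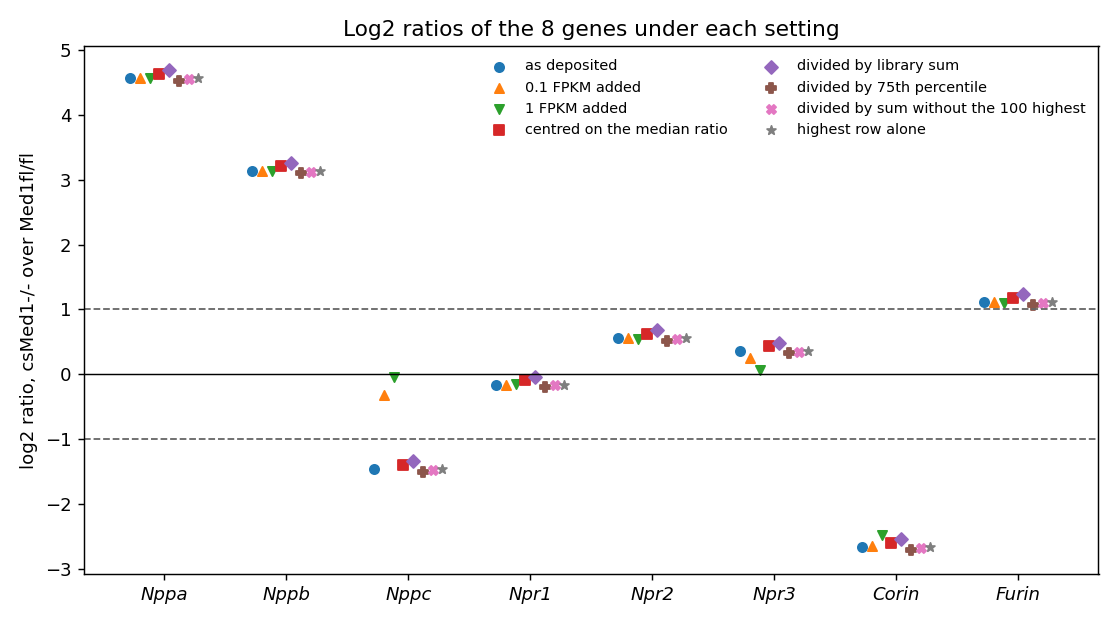
Log2 ratio of each of the 8 genes as deposited and under 7 alternatives (symbols), with dashed lines at 2-fold. The symbols of Nppa, Nppb, Npr1, Npr2, Corin and Furin do not cross a dashed line, while those of Nppc move from -1.47 to -0.32 and -0.04 as 0.1 or 1 FPKM is added.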

How the data were processed

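Heart RNA was pooled from 5 mice of each genotype, and 1 directional oligo-dT library per pool was sequenced with single-end reads of 50 nt. The authors aligned reads to mm10 with TopHat2 2.0.8b. The paper gives Cufflinks 2.1.1 with the UCSC annotation for expression and cuffdiff for differences, while the processing notes name Cuffdiff 2.1.1. Which of these tools wrote the deposited FPKM values is not settled by these sources. The processing notes also name STAR 2.4.0h, Bowtie2 and DESeq2 without a role. Read totals are unknown, which leaves counting error unknown. The strand setting of the counting and the scaling between libraries are not given in the sources used here.

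FPKM of rows with the same symbol were summed, and the ratio of csMed1-/- to control was computed with Python 3.11.15, numpy 2.4.6 and pandas 2.3.3, after the script was tested on simulated data. Genes with a value above 0 in each library that reached 1 FPKM in at least 1 of them were kept, and a gene past 2-fold was counted. With 1 library per genotype no test was possible. Members and lists were chosen with earlier results of these data known. Named are all members, listed genes past 2-fold at 1 FPKM or more or highest of their list, the 3 genes nearest in ratio to Nppa, Nppb and Corin, the locus neighbours and Med1 (some neighbours and markers are not reported here); other listed genes are named for their known role, after their values were seen. Loci are from GENCODE M21 and promoters from RefSeq. Alternatives were other scalings, 0.1 or 1 FPKM added, other minimums, 4-fold, and the highest row of a symbol alone.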

Additional observations from a re-analysis of the deposited data

How the results depend on the processing

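With no FPKM minimum, 2504 genes were higher and 3182 lower past 2-fold, and 2 members were lower, Nppc being added to Corin. At 10 FPKM in either library 821 genes were higher and 885 lower, and past 4-fold 453 were higher and 539 lower. These counts compare with 1423 higher and 1886 lower as reported, and fewer or more genes tested, or a stricter fold, is what the settings change by construction. Past 4-fold, Nppa and Nppb were the 2 higher members, without Furin. Dividing by the library sum moved every log2 ratio by 0.12, the largest shift of the scalings run. In the gene lists, changed calls are given beside the named genes. Division by the library sum also put Xirp1 past 2-fold (1.01 from 0.89), and 1 FPKM added put Hey2 (-0.55) and Apoa1 (-0.81) within it. The median of the 2 guanylyl cyclases kept was -0.37 with 1 FPKM added against -0.73. The library sum and a 1 FPKM minimum in both libraries were applied to the lists after seeing the data. No paired analysis was possible because each genotype has 1 library, and no library could be left out. Precision is limited by the lack of replicates and, for Nppc and Npr3, by few reads.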

Other observations

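Markers of further cell types were also summed in each library. Of 6 smooth muscle and pericyte markers, 1 was higher and 1, Myh11, lower past 2-fold (log2 ratio -1.04), the latter within 2-fold with centred ratios (-0.96), after division by the library sum (-0.91) and with 1 FPKM added (-0.74). Their sums were 704 FPKM in control against 489 FPKM in csMed1-/- heart. The 3 macrophage markers that passed the minimum lay within 2-fold, with sums of 39.1 and 39.7 FPKM over the list. No lymphocyte marker passed (sums of 0.927 and 0.754 FPKM). In the erythroid and adipocyte lists 1 gene carried nearly the whole sum in both libraries, and in the nerve list it did so in control. This was Alas2 (35.8 and 82.1 FPKM) for erythroid markers, with the globin genes not under symbols of their own. It was Cidea (37.6 and 81.4 FPKM) for adipocyte markers, with Adipoq and Plin1 at 0 in control and near 0 in csMed1-/- heart and Ucp1 at 0 in both. It was Dbh (22.5 and 0.391 FPKM) for nerve markers, with Th at 0 in control and near 0 in csMed1-/- heart. Of the lung and liver markers, Alb had 6.23 and 0.746 FPKM and Apoa1 1.49 and 0.423 FPKM, while the lung genes Sftpc and Scgb1a1 were at or near 0. These genes are named after their values were seen, and no cell type is read from 1 gene.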
